A study of Homo sapiens with 3 samples.

Results

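The 9 enzymes that carry squalene to cholesterol were measured in human melanoma cells grown as a monolayer, as attached spheroids called melanoma bodies, and as a monolayer regrown from those bodies. They are SQLE, LSS, CYP51A1, TM7SF2, SC4MOL, NSDHL, EBP, SC5DL and DHCR7, 9 of the 17078 genes with a RefSeq mRNA accession on the array, and they were found by the gene name printed beside each probe, which matched 16 of the 41000 probes. SC4MOL is now called MSMO1 and SC5DL is now called SC5D. The enzymes were selected on measured values, their ratios of melanoma body signal to that of both monolayers, so those differences are given as a description, without a test.

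The cells were 1205Lu, a human melanoma line obtained from a lung metastasis that WM793 cells formed in a mouse. The original monolayer (OM) was kept for 14 days in standard medium, RPMI-1640 with 10% FCS. The melanoma bodies (MB) were grown for 14 days in hESC medium, which has DMEM/F-12 as its base and 20% of a KnockOut substitute for serum, and were collected by detachment. The new monolayer (NM) came from bodies grown in the same way, followed by 10 days in standard medium and removal of the bodies that were left. Each population gave 1 RNA sample and 1 array of 1 line, and medium and growth form change together between MB and both monolayers, so medium, growth form and differences between single cultures cannot be told apart. In RNA from whole cultures, fewer cells of a type and less RNA per cell cannot be told apart either.

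Cholesterol is made in the endoplasmic reticulum from acetyl-CoA. The mevalonate pathway builds the linear hydrocarbon squalene, which is then oxidised, closed into the ring system of lanosterol, and trimmed of its extra methyl groups while its double bonds are moved and reduced. The genes of both stages are classic targets of SREBP-2, a membrane-bound transcription factor that SCAP escorts to the Golgi for cleavage when membrane sterol is low and that INSIG proteins hold back when sterol is plentiful. SREBP-2 acts at sterol regulatory elements together with NF-Y, which binds CCAAT boxes, and SP1, which binds GC boxes. Dividing tumour cells need cholesterol for new membrane and obtain it from this pathway or from LDL taken up from serum.

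RNA was labelled with Cy3 and hybridised to Agilent 60-base probes, and the values are spot intensities in arbitrary units (a.u.). Every member probe was printed in 1 spot, and all 16 were well above background on all 3 arrays, with none saturated and none marked as an outlier feature. The lowest member signals on OM, MB and NM were 67.6, 216 and 43.1 a.u., while the dimmest probes called well above background read 20.9, 19.4 and 29.1 a.u. The mean of GAPDH, ACTB and HSP90AA1, used to scale the arrays to OM, was 131555 a.u. in OM, 128596 in MB and 115402 in NM. Signals below are as deposited, and ratios are of scaled signals on the log2 scale unless called a fold. Only technical measures of error are available. In 201 probes printed in 10 spots and averaging above 100 a.u., single spots had a log2 MB over OM ratio with an SD of 0.06, which is a 1.05-fold difference, and it leaves out the variation between cultures. The error model of the scanner software is wider, about 0.20 on the ratio of each enzyme's brightest probe, and leaves that variation out as well.

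All 9 enzymes were brighter in MB than in either monolayer, and so were all 16 of their probes. Their median log2 ratio was 1.43 against OM, which is 2.69-fold, and 1.34 against NM, which is 2.52-fold. The median over all genes well above background on both arrays compared was 0.13 and 0.03. SC4MOL, TM7SF2 and DHCR7, 3 of the 9, reached a 5-fold higher signal in MB than in OM, where 0.94% of the 13730 genes measured passed the same rule. TM7SF2 alone was 5-fold or more higher than in NM, where 1.42% of 13616 genes were. At 2-fold, 7 of the 9 were higher in MB than in OM (5.74% of all genes measured) and 6 of the 9 than in NM (9.78%). Because the enzymes were picked for these differences, the shares of all genes stand beside the counts as background and nothing is drawn from the gap. Between NM and OM, 0 of the 9 reached a 2-fold difference, which 6.74% of 13466 genes did. A count of 0 among 9 genes is near that share, and nothing is drawn from it. The median NM over OM ratio was 0.11 for the enzymes and 0.12 for all genes well above background on both arrays.

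**Figure D1:**
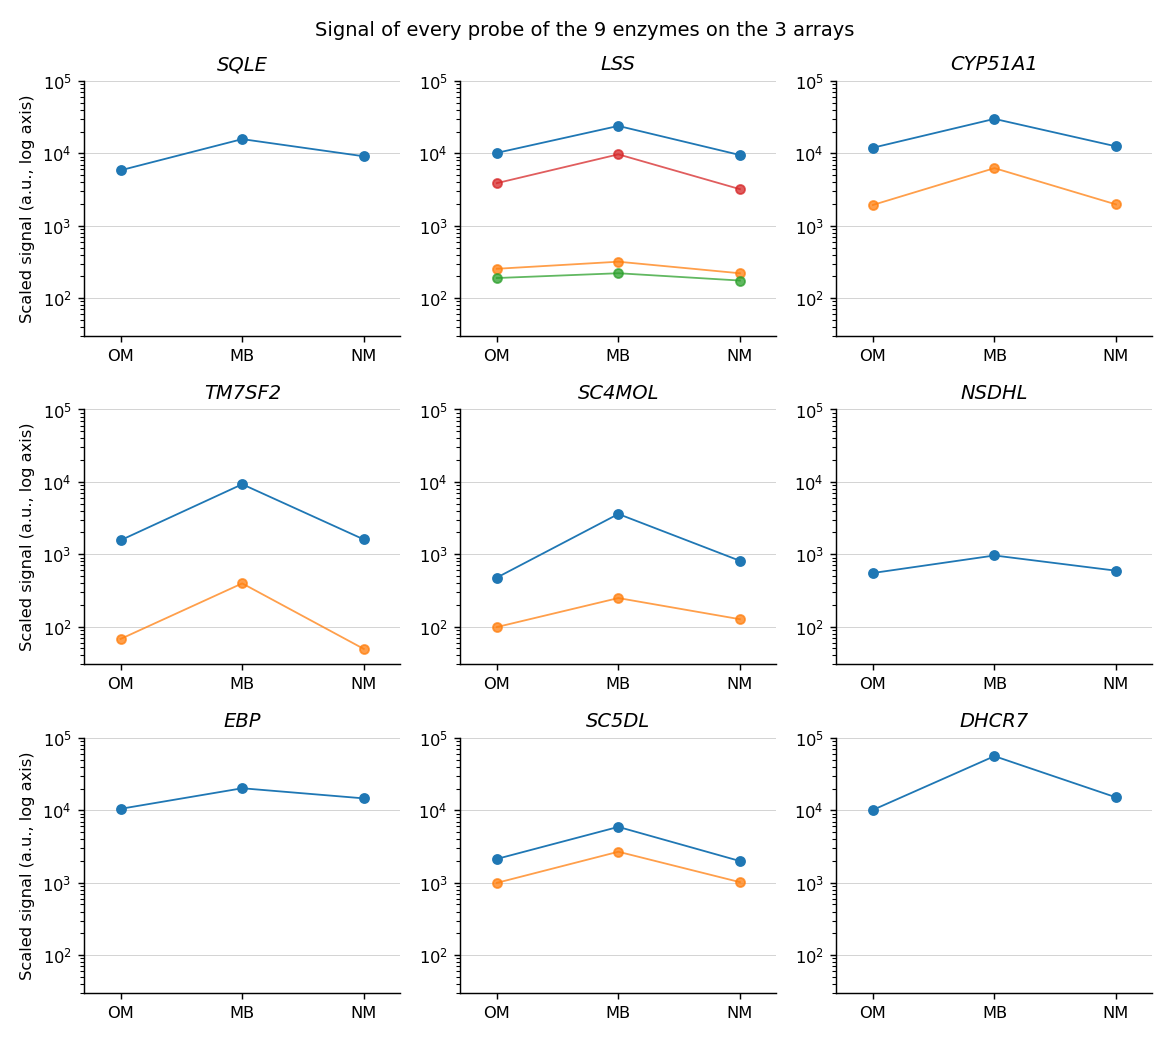
Scaled signal (a.u., log axis) of every probe of the 9 enzymes on the OM, MB and NM arrays, with 1 panel per enzyme in pathway order and 1 line per probe. The darker blue line is the probe that stands for the gene, and each of the 16 lines peaks at MB.

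SREBP-2 target promoters are known for the motifs named above, and the stretch before each enzyme's start was therefore read for them in the RefSeq promoter table (GRCh38.p14), which holds 8 of the 9 enzymes in 10 windows of 300 bases. The promoters of the 3 enzymes with the largest MB over OM ratio and of the 2 with the smallest are shown, 250 bases up to the annotated start, read 5′ to 3′ on the gene's own strand, with each CCAAT (or ATTGG, its reverse complement) in capitals. They lie at chr4:165327419-165327668 on the plus strand (SC4MOL), chr11:65111622-65111871 on the plus strand (TM7SF2), chr11:71448394-71448643 on the minus strand (DHCR7, the first of 2 annotated starts), chrX:48521558-48521807 on the plus strand (EBP) and chrX:152830813-152831062 on the plus strand (NSDHL).
SC4MOL: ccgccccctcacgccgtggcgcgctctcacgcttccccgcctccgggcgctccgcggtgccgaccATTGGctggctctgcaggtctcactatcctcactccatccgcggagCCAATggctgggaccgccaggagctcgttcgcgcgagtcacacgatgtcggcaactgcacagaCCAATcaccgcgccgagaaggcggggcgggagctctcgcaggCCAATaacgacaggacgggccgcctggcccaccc
TM7SF2: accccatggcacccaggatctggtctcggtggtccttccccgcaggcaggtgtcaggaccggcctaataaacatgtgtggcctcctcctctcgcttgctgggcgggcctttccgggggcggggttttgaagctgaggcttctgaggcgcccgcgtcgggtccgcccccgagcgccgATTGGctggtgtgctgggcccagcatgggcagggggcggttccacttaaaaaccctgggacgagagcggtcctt
DHCR7: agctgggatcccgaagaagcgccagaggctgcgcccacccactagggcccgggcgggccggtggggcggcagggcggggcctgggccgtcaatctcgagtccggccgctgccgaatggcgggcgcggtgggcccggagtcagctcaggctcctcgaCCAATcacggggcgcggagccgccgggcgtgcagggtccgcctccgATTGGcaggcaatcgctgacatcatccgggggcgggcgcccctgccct
EBP: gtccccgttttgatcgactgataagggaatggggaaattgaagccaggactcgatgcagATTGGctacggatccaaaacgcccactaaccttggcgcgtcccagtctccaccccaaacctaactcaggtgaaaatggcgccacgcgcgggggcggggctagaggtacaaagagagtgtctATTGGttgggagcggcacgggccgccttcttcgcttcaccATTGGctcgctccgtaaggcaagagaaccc
NSDHL: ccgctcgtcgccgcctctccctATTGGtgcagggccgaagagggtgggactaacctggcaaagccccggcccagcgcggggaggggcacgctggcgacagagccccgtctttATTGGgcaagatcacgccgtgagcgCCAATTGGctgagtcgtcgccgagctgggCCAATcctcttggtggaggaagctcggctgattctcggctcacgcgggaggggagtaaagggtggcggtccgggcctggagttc

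The capitals mark 4 CCAAT letters in the SC4MOL stretch, 1 in TM7SF2, 2 in DHCR7, 3 in EBP and 5 in NSDHL, of which 2 overlap on opposite strands. NSDHL holds the most matches of the 5 and TM7SF2 the fewest. In the 300-base windows, LSS and each SC5DL window also held 1, and CYP51A1 held 0. The 5 were picked by their ratios, and a link between matches and ratio was not tested. Over both strands of the 300-base windows, CCAAT was found for 7 of the 8 enzymes, all but CYP51A1. By window, it was in 8 of their 10 and in 34.6% of all 35116 windows of the table. GGGCGG, the core of a GC box, was found for 7 of the 8, all but NSDHL. By window, it was in 8 of their 10, and in 45% of all windows or 63% of the 15967 windows of genes measured here. TCACNCCAC, the core letters of a sterol regulatory element, was found for 0 of the 8 and in 1.13% of all windows. These are matches of letters in a short window, and an absent match says only that these letters are not in it.

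**Figure D2:**
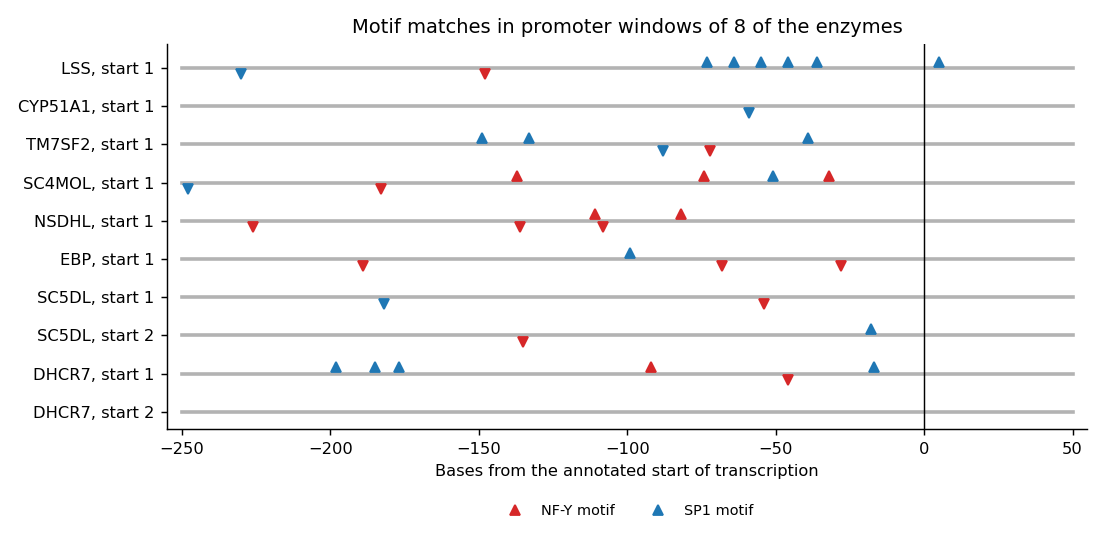
Position of CCAAT (NF-Y motif, red) and GGGCGG (SP1 motif, blue) in the 10 RefSeq windows of 8 enzymes, in bases from the annotated start of transcription. Triangles pointing up are matches on the gene's strand and those pointing down on the other strand, and the CYP51A1 window and the second DHCR7 window hold no CCAAT.

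SQLE, squalene monooxygenase, puts the first oxygen on squalene and is a rate-controlling step of the pathway. Its probe on chromosome 8 (126103625 to 126103684, hg17, the build of the array files) read 5847 a.u. in OM, 15403 in MB and 8002 in NM. SQLE was thus highest in MB and intermediate in NM. The log2 ratio was 1.43 against OM (2.69-fold) and 0.79 against NM (1.73-fold), a difference that comes from an NM signal 0.64 above OM. The local background around the SQLE spot on MB carried an outlier mark. That background is not what was subtracted from the signal, and the spot itself carried no mark.

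LSS, lanosterol synthase, closes squalene epoxide into lanosterol, the first sterol of the pathway. The brighter of its probes for the main transcript (chromosome 21, 46433471 to 46433530, hg17, minus strand) read 10167 a.u. in OM, 23438 in MB and 8332 in NM, log2 ratios of 1.24 and 1.34 for MB over OM and MB over NM. A second probe for the same accession, at 46433727 to 46433786, read 3881, 9485 and 2813 a.u., with ratios of 1.32 and 1.60. LSS in MB was therefore more than 2-fold above both monolayers by both of these probes.

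LSS has a further pair of probes under another accession, which lie 712 and 732 bases beyond the upstream main probe in the direction of transcription and overlap each other. One of them read 254 a.u. in OM, 312 in MB and 194 in NM, and the other 190, 216 and 154. Both followed the same order of populations as the main probes, but their MB over OM ratios were 0.33 and 0.22 and their MB over NM ratios 0.53 and 0.34. Among 4255 genes with 2 or more probes the median difference between the MB over OM ratios of 2 probes of a gene was 0.15, and the 90th percentile 0.66, so the gap between the LSS pairs is larger than in most genes. Which transcript ends these probes read was not analysed here.

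CYP51A1, the lanosterol demethylase and the cytochrome P450 of the pathway, removes a methyl group from the new ring system. Its brighter probe (chromosome 7, 91386117 to 91386149, hg17, minus strand) read 11976 a.u. in OM, 29337 in MB and 10978 in NM, and the second (91387260 to 91387319) read 1939, 6119 and 1730. Both probes showed MB well above the monolayers, which lay close to each other. Ratios for MB over OM were 1.33 and 1.69, and for MB over NM 1.26 and 1.67, with the dimmer probe giving the larger value each time.

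TM7SF2, a sterol reductase whose reaction the nuclear envelope protein LBR can also carry out, removes the double bond that the demethylase leaves. Its brighter probe (chromosome 11, 64640165 to 64640224, hg17, plus strand) read 1563 a.u. in OM, 9066 in MB and 1405 in NM. Its second probe (64637567 to 64637626) read 67.6 a.u. in OM, 387 in MB and 43.1 in NM. Both probes placed MB more than 5-fold above both monolayers. The brighter gave 5.94-fold over OM and 5.79-fold over NM, and the dimmer 5.85-fold and 8.04-fold. OM and NM differed by 0.04 on the log2 scale in the brighter probe, so that TM7SF2 read nearly alike in the 2 monolayers, while the dimmer probe gave an NM over OM ratio of -0.46. TM7SF2 was the enzyme with the largest ratio against NM, at rank 134 of 13616 genes.

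SC4MOL, the methylsterol monooxygenase, starts the removal of the paired methyl groups of the sterol ring. Its probe for the annotated mRNA (chromosome 4, 166620795 to 166620854, hg17, plus strand) read 475 a.u. in OM, 3518 in MB and 712 in NM. By this probe SC4MOL had the largest MB over OM ratio of the 9 enzymes, 2.92 or 7.57-fold, and stood at rank 55 of 13730 genes. Against NM it was 4.43-fold higher, just short of 5-fold, and NM lay 0.77 above OM on the log2 scale. Another probe named SC4MOL on the array was designed to an expressed sequence tag and lies on the minus strand, opposite to the gene (166621747 to 166621806). It read 98.6 a.u. in OM, 242 in MB and 111 in NM, the same order with smaller ratios of 1.33 and 0.97.

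NSDHL, the dehydrogenase that acts after SC4MOL and releases the oxidised carbon, had the smallest MB over OM ratio of the 9, each by its brightest probe. Its probe on the X chromosome (151697962 to 151698021, hg17, plus strand) read 550 a.u. in OM, 940 in MB and 520 in NM. The MB signal was 1.75 times that of OM and 1.62 times that of NM. On the log2 scale these ratios are 0.80 and 0.70.

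EBP, emopamil-binding protein, is the isomerase that shifts a double bond within the sterol ring. Its probe, also on the X chromosome (48143196 to 48143255, hg17, plus strand), read 10498 a.u. in OM, 19736 in MB and 12833 in NM. The MB signal was 1.92-fold above OM, just under 2-fold, and 1.38-fold above NM, the smallest ratio against NM of the 9. On MB against NM, 26.8% of all genes measured had a ratio at or above that of EBP.

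SC5DL, the sterol desaturase that makes 7-dehydrocholesterol, was measured by a pair of probes on chromosome 11. The brighter (120683611 to 120683670, hg17, plus strand) read 2130 a.u. in OM, 5773 in MB and 1748 in NM, and the other (120683977 to 120684036) read 994, 2618 and 893. The probes gave closely matching MB over OM ratios of 1.47 and 1.43, and MB over NM ratios of 1.57 and 1.40. SC5DL was thus 2.77-fold higher in MB than in OM by its brighter probe and 2.69-fold by the other.

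DHCR7, 7-dehydrocholesterol reductase, carries out a final step that yields cholesterol, and its substrate is also the precursor of vitamin D. Its probe (chromosome 11, 70823162 to 70823221, hg17, minus strand) read 10134 a.u. in OM, 54842 in MB and 13265 in NM. DHCR7 was 5.54-fold higher in MB than in OM, at rank 102 of 13730 genes, and 3.71-fold higher than in NM. The NM signal lay 0.58 above OM on the log2 scale.

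**Figure D3:**
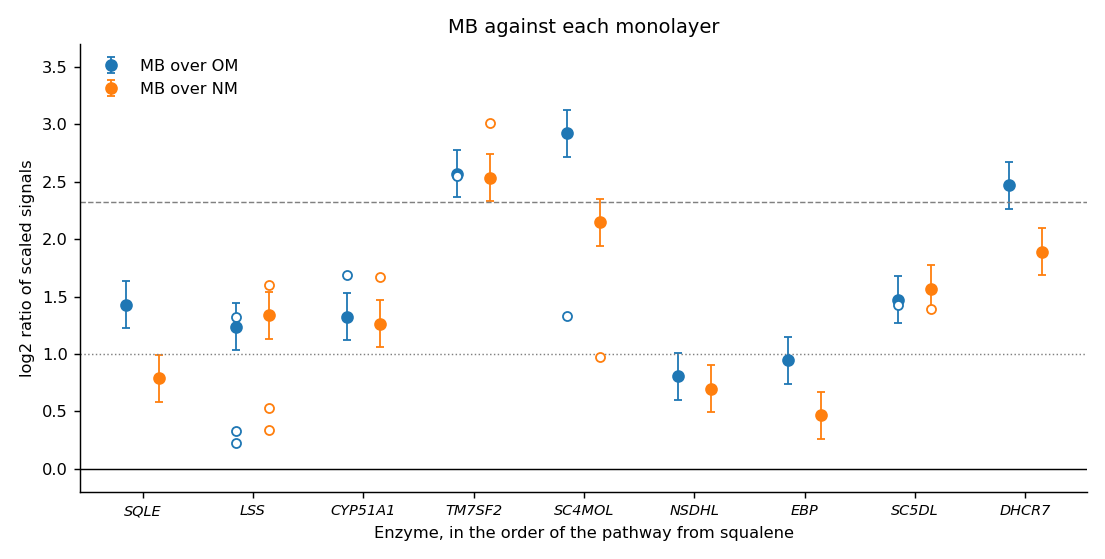
Log2 ratio of scaled signals for MB over OM (blue) and MB over NM (orange) for each enzyme in pathway order. Filled points are the probe that stands for the gene, with the error the scanner software's model assigns (about 0.20 each way, technical), open points are other probes, the dotted line marks 2-fold and the dashed line 5-fold. SC4MOL, TM7SF2 and DHCR7 lie above the dashed line against OM, and 0 points lie below 0.

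Ordered by the MB over OM ratio, the enzymes ran SC4MOL (2.92), TM7SF2 (2.57), DHCR7 (2.47), SC5DL (1.47), SQLE (1.43), CYP51A1 (1.33), LSS (1.24), EBP (0.94) and NSDHL (0.80). The widest gap, 1.00, separated DHCR7 from SC5DL. From repeated spots, the technical SD of a difference between 2 such ratios is 0.09. The neighbours SC5DL and SQLE (0.04 apart) and CYP51A1 and LSS (0.09 apart) do not differ beyond it. The scanner software's model is wider, with an error of about 0.20 on each ratio alone, so further gaps lie within technical error by that measure. TM7SF2 and DHCR7, SQLE and CYP51A1, and EBP and NSDHL lie 0.10, 0.10 and 0.14 apart. That is less than the median difference of 0.15 between 2 probes of a single gene, so the order within these pairs may depend on the probe. The order beyond these pairs depends on the probe as well. With all probes of a gene averaged, SC4MOL (2.13) fell below TM7SF2 (2.56) and DHCR7 (2.47). CYP51A1 (1.51) then rose above SC5DL (1.45) and SQLE (1.43), and LSS (0.78) came last, below NSDHL (0.80). The order does not follow the order of the reactions, since the 3 largest ratios belong to the fourth, the fifth and the last enzyme of the list.

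Against NM the order was TM7SF2 (2.53), SC4MOL (2.15), DHCR7 (1.89), SC5DL (1.57), LSS (1.34), CYP51A1 (1.26), SQLE (0.79), NSDHL (0.70) and EBP (0.46). Both sets of ratios share the MB array, so an MB signal that is off moves both alike, and the values are set side by side without a correlation. SQLE, EBP, SC4MOL and DHCR7 had smaller ratios against NM than against OM because their NM signals lay above OM. Their NM over OM ratios were 0.64, 0.48, 0.77 and 0.58, where the median of all genes well above background on both monolayers was 0.12. NSDHL (0.11), CYP51A1 (0.06), TM7SF2 (0.04), SC5DL (-0.10) and LSS (-0.10) read nearly alike on the monolayers.

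**Figure D4:**
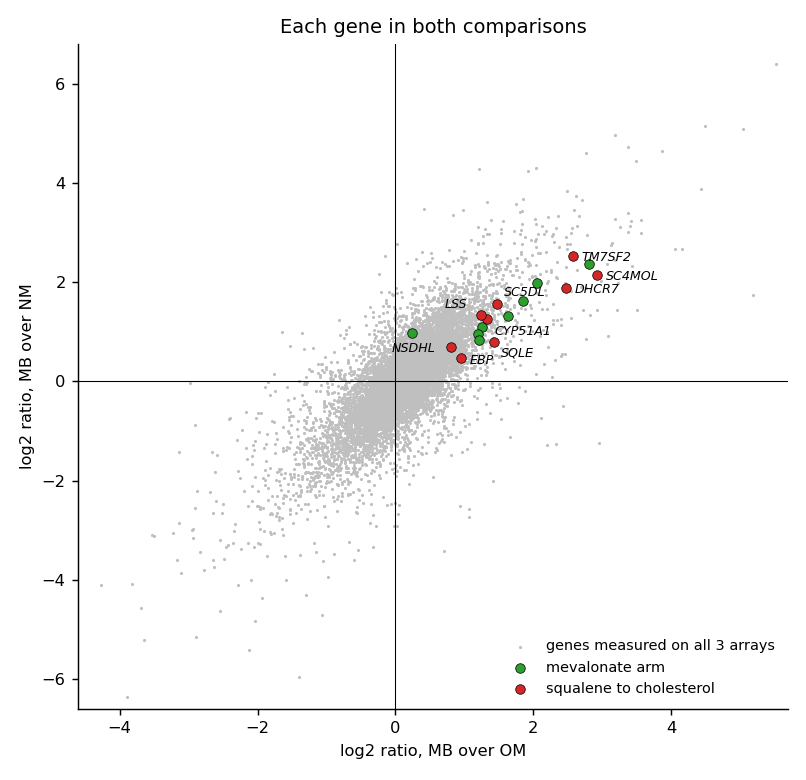
Log2 ratio of MB over OM (x axis) against MB over NM (y axis) for each gene measured on all 3 arrays (grey), with the 9 enzymes after squalene in red and the 8 genes listed for the mevalonate pathway in green. The axes share the MB array, which by itself tilts the cloud upwards, and each red point lies to the right of and above 0.

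The genes that make squalene were the nearest part of the pathway. All 8 listed genes of this arm, from ACAT2 to FDFT1, were higher in MB than in both monolayers, with a median of 1.44 against OM and 1.21 against NM, beside 1.43 and 1.34 for the enzymes after squalene. HMGCS1, which makes HMG-CoA, was the highest (3982 a.u. in OM, 27186 in MB and 4719 in NM), 6.98-fold over OM and 5.17-fold over NM. PMVK, phosphomevalonate kinase, had the lowest ratio against OM, 0.25, but 0.98 against NM, since its NM signal was lower. At 2-fold, 7 of the 8 were higher against OM and 5 against NM, beside 7 and 6 of the 9 enzymes after squalene.

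Of 6 further genes that serve the steps after squalene, 2 were 2-fold or more higher in MB against both monolayers, and the median ratios of the 6 were 0.35 and 0.54. The 2 were HSD17B7, a ketosteroid reductase that works with NSDHL, at 1.66 and 2.22 on the log2 scale, and C14orf1 (now ERG28), a membrane protein that gathers the demethylation enzymes, at 1.38 and 1.14. POR, which passes electrons to CYP51A1 and SQLE as well as to other enzymes, was at 0.68 and 0.87. LBR, which shares its reductase activity with TM7SF2, was at 0.02 and 0.20, against 2.57 and 2.53 for TM7SF2. EBPL, a relative of EBP, was at -0.16 and -0.49, and CYB5R3, an electron donor with many other partners, at -0.04 and -0.38.

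The 9 genes listed for sterol sensing and transport were all measured, with medians of 0.44 against OM and 0.22 against NM. At 2-fold, 3 were higher and 1 lower in MB against OM, and 1 higher and 1 lower against NM. Over all genes measured, 788 of 13730 were higher and 444 lower against OM. Against NM, 1332 of 13616 were higher and 1103 lower. The counts of the list against NM are near those shares, and nothing is drawn from them. SREBF2, which encodes SREBP-2, was highest against OM, with 5096 a.u. in OM, 14336 in MB and 8050 in NM, ratios of 1.52 and 0.68. INSIG1, itself a target of SREBP-2, had 1.38 and 0.73. As deposited, the NM signals of SREBF2 and INSIG1 lay between OM and MB, as did those of SQLE, SC4MOL, DHCR7 and EBP among the enzymes. On the scaled signals, CYP51A1, NSDHL and TM7SF2 did so as well by their brightest probes, which makes 7 of the 9 enzymes. SREBF1, which encodes the SREBP-1 factors of fatty acid synthesis, went the other way, with 79032 a.u. in OM, 36172 in MB and 90290 in NM, ratios of -1.09 and -1.48. STARD4, a carrier of cholesterol within the cell, was highest against NM, at 1.06 and 1.47 for MB over OM and MB over NM.

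Genes that use or export cholesterol, listed together with MYLIP and the liver X receptor genes, had lower ratios. Of 9 listed, 8 were measured, and the count at 2-fold was 1 higher and 2 lower against OM and 1 higher and 3 lower against NM. Over all genes measured, 444 of 13730 were lower against OM and 1103 of 13616 against NM. The 3 lower against NM were ABCA1, MYLIP and CYP27A1, which was at -0.54 and -1.58. With so few genes, nothing is drawn from these counts. ABCA1, the exporter of cholesterol to HDL, read 1438 a.u. in OM and 1841 in NM by its brightest probe and could not be told from background in MB. Its MB signal was thus at least 72.2-fold lower than in OM and at least 105-fold lower than in NM. MYLIP, a ubiquitin ligase, was at -2.04 and -1.20. ABCG1, another exporter, was dim on both monolayers (31.7 and 42.8 a.u.) and not well above background in MB, at least 1.60-fold and 2.46-fold lower. ABCA1, ABCG1 and MYLIP are classic targets of the liver X receptors, which respond to oxidised sterols, and the receptor genes NR1H3 and NR1H2 were at -0.20 and 0.19 against OM and at -0.36 and -0.65 against NM. CYP7B1, an oxysterol hydroxylase, was the highest of this list, at 1.12 and 1.36, from 107, 229 and 80.2 a.u. on OM, MB and NM. CH25H stayed at background on the 3 arrays. None of the differences between the lists was tested, since there is 1 array per population.

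Markers checked the label of the cells. Of 10 melanocyte markers, 8, 8 and 7 were well above background on OM, MB and NM, with summed scaled signals of 104030, 149870 and 93842 a.u. SOX10, S100B and MIA were bright, while the pigment genes TYR and TYRP1 were not above background on any array. Of the markers of other cell types, COL1A1 (fibroblasts), PTPRC (leukocytes), CDH5 (endothelium) and KRT5 (keratinocytes) were likewise not above background on any of the 3. Others of these lists were above background on all 3. On OM, MB and NM, PDGFRA read 5519, 9882 and 3174 a.u., PDGFRB 1246, 2322 and 2737, and THY1 960, 788 and 940. VWF read 185, 390 and 95.6 a.u., and KRT14 213, 373 and 118. Of 7 fibroblast markers, 3, 4 and 3 were above background (sums 7725, 13317 and 7810 a.u.), of 6 leukocyte markers 5 on each array (5055, 2173 and 6195 a.u., mostly CD68), of 5 endothelial markers 2 on each (212, 489 and 340 a.u.), and of 4 keratinocyte markers 1 on each (213, 381 and 134 a.u.). The melanocyte, fibroblast, endothelial and keratinocyte sums were highest in MB, as the 9 enzymes were, and the leukocyte sum was lowest there. These sums rest on a few bright genes, mostly MIA and S100B for melanocytes and PDGFRA for fibroblasts. Not every marker followed them: SILV read 286, 209 and 271 a.u. on OM, MB and NM. The part of such shifts in the ratios was not tested.

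The 8 genes nearest to the median pair of ratios of the enzymes (1.43 and 1.34), among 11579 genes well above background on the 3 arrays, were C5, SLC30A1, ABCB1, BMF, C14orf4 (now IRF2BPL), BCDIN3 (now MEPCE), PPAPDC1A (now PLPP4) and PDGFA. Their distance ran from 0.005 for C5 to 0.11 for PDGFA on the log2 scale, and 0 of the 8 belong to the lists of sterol genes above. C5, a complement component, read 600 a.u. in OM, 1574 in MB and 559 in NM.

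Scaling sets how far each ratio stands from 0, and the enzymes were therefore also measured under 10 other ways of processing. The 9 enzymes stayed above both monolayers in each of them, that is, in all 180 values. These values reuse the same 3 arrays, and the enzymes were picked as higher in MB, so nothing is drawn from that count. Averaging probes could not reverse a direction, since all 16 probes were higher in MB. Among these ways, the series value table repeats the deposited intensities and could not differ. SC4MOL against OM ran from 2.13, when its probes were averaged, to 2.92, and TM7SF2 and DHCR7 ran from 2.26 to 2.57 and from 2.16 to 2.57. LSS against OM ran from 0.78, the mean of its 4 probes, to 1.25. Against NM, EBP had the lowest values, 0.29 to 0.62. Scaled to the spike-in probes, which were 1.21 times as bright on MB as on OM, SC4MOL alone was 5-fold above OM, with TM7SF2 at 4.78-fold and DHCR7 at 4.46-fold. With its probes averaged, SC4MOL was 4.37-fold above OM, and with 75th percentile scaling DHCR7 was at 2.28 on the log2 scale, just under 5-fold. Quantile normalization placed DHCR7 (2.57) above TM7SF2 (2.45). For NM over OM, SQLE, SC4MOL, DHCR7 and EBP stayed above 0 under all 10, LSS and SC5DL stayed below 0 under all 10, and CYP51A1, NSDHL and TM7SF2 lay on either side.

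**Figure D5:**
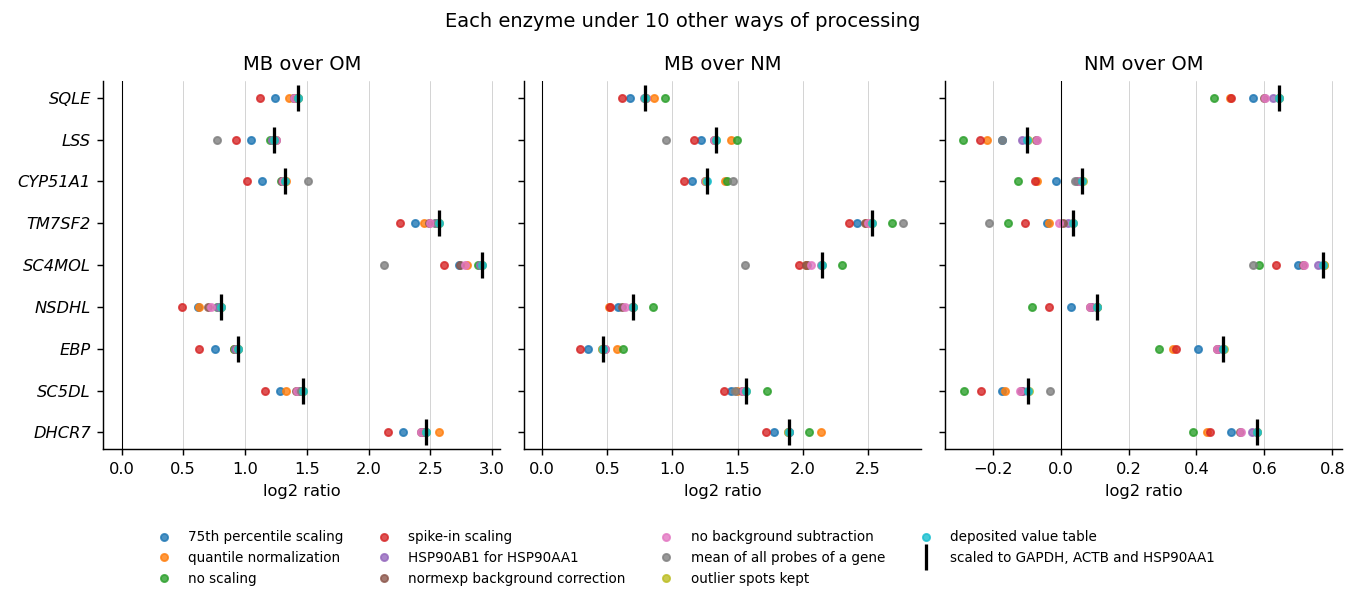
Log2 ratio of each enzyme for MB over OM, MB over NM and NM over OM as reported (black bar) and under each of 10 alternatives (coloured points). Points right of the vertical line at 0 are higher in the population named first, as are all points in the panels for MB.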

How the data were processed

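RNA from the OM, MB and NM populations of 1205Lu was hybridised to 3 arrays, 1 per population, which share 1 slide, and with it the scan. The authors deposited the intensity of each spot from Agilent Feature Extraction (version 9.5.3.1 in the file header, 9.5 in the submitters' processing notes) on a linear scale in arbitrary units. By the columns of the files, a fitted spatial background surface had been subtracted and the result divided by a multiplicative trend, which reproduced 100% of the values not replaced by a surrogate. No scaling between arrays had been applied. The series value table repeats these deposited intensity values, 43376 of 43376 spots per array within 0.1%, and 0 columns belonged to another series.

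Spots marked as outlier features were left out (77 on OM, 79 on MB, 81 on NM), spots of a probe were averaged, and arrays were scaled to the average of HSP90AA1, ACTB and GAPDH, each from a probe in 10 spots, as in the study's methods. Which HSP90 gene the study used is not given in the sources used here, and HSP90AA1 is an assumption. A gene was represented by its probe with the highest mean signal. A gene counted as measured when well above background on 1 or both arrays compared, and as higher at 5-fold or 2-fold with more than 100 a.u. unscaled on the brighter array. A fold against an array where the probe did not clear background is a lower bound, taken against the probe's own signal or the dimmest signal well above background there, whichever was higher.

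With 1 array per population there is no test across samples and no p-value, and precision is limited by the small number of arrays. The enzymes and the gene lists were chosen with earlier results of these data known, and a few genes of these pathways are not reported here. Named genes were all probes of the 9 enzymes, of each sterol list the highest, the lowest and those that went the other way (with others of each list added after their values were seen), the 8 genes nearest to the enzymes' median ratios by Euclidean distance, and the housekeeping genes. Promoters and current names came from RefSeq tables (GRCh38.p14), where 9 of the 9 enzymes had a gene entry and 8 a promoter. Probe positions are in hg17 as deposited, and their place in exons was not analysed here.

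Alternatives were scaling to the 75th percentile or to 7 spike-in probes, no scaling, quantile normalization, HSP90AB1 for HSP90AA1, no background subtraction, background correction by normexp (offset 50; limma 3.58.1, R 4.3.3), the mean of all probes of a gene, outlier spots kept, no filter on dim signals, and the value table. Other computations used Python 3.11.15, numpy 2.4.6, pandas 2.3.3 and matplotlib 3.10.9, and the calls were tested on simulated arrays.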

Additional observations from a re-analysis of the deposited data

How the results depend on the processing

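No paired analysis was possible because each population has 1 array, and for the same reason no replicate could be left out. The count of enzymes 5-fold or more above OM was 3 as reported, 1 under spike-in scaling, 2 with 75th percentile scaling or the mean of all probes, and 3 under the other 8 alternatives. The other counts ran from 6 to 7 at 2-fold against OM, from 5 to 6 at 2-fold against NM, while the count at 5-fold against NM stayed at 1 and that of 2-fold differences between NM and OM at 0 under all 11. The median ratio against OM (1.43 as reported) was 1.24 with 75th percentile scaling, 1.33 with quantile normalization and 1.12 with spike-in scaling. Against NM (1.34 as reported) it was 1.22, 1.45 and 1.16 under the same 3, 1.49 with no scaling, 1.46 with the mean of all probes, and 1.45 without SQLE, an alternative chosen after seeing the data. The median of NM over OM (0.11 as reported) was 0.0311 with 75th percentile scaling, -0.0325 with spike-in scaling and -0.0825 with no scaling, so its sign depends on the scaling. The median over all genes moved alongside, for MB over OM from 0.13 to -0.18 and for MB over NM from 0.03 to -0.15 under spike-in scaling, and to 0.18 for MB over NM with no scaling. Relative to it the enzymes' median ran from 1.29 to 1.32 against OM, from 1.31 to 1.47 against NM and from -0.02 to 0.06 for NM over OM. The 1.32 comes from the mean of all probes, which was taken for the enzymes only. The median over all genes kept its reported value there, so the 2 sides were processed in unlike ways. Alternatives that only multiply each array by a constant cannot change this difference, so the narrow range is partly fixed in advance. Of 270 values for single enzymes under alternatives, 156 moved by less than the technical spread of a single spot and 114 moved farther. The values under the value table could not move, since it repeats the same intensities. Keeping outlier spots could move an enzyme only through the scaling, since none of the enzymes' spots was marked as an outlier feature. None of the 180 values for MB over a monolayer fell below 0, from which nothing is drawn, since the enzymes were picked as higher in MB. NM over OM, above 0 as reported for CYP51A1, NSDHL and TM7SF2, stayed above 0 under 6, 8 and 4 of 10 alternatives. All member probes were well above background on the 3 arrays, and the variation between cultures could not be measured with 1 array per population.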
